A study of Mus musculus with 12 samples.

Results

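The comparison set germ cells of the mouse testis at postnatal day 7 (P7) against germ cells of the testis at embryonic day 17 (E17). It used 4 of the 12 libraries of the series, 2 at P7 and 2 at E17, picked by their titles. All 4 were RNA of testis germ cells of mice with 1 copy of a Vasa-RFP transgene, a red fluorescent reporter under the promoter of a germ cell gene (genotype Vasa-RFP Tg/0). No Stag3 mutation is given for them. Values of 2 libraries of testis germ cells at embryonic day 16 (E16, same genotype) and of 2 libraries of cultured wild-type germline stem cells (GSCs, a line with Acrosin-EGFP and beta-Actin-EGFP reporters) are given beside them where they bear on a result. SC3-seq counts the 3' ends of cDNA amplified from a small amount of RNA, here 1 ng a library. The labels give neither the strain nor a sort, nor whether the 2 libraries of an age came from separate animals, so the spread behind each p-value may be technical. The study asked how cohesin with the STAG3 subunit acts in the male germline, and these libraries give its in vivo expression before and after birth.

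Male germ cells stop dividing in the fetal testis and remain arrested as prospermatogonia until after birth. During the arrest they lay down new DNA methylation over transposons and imprinted genes, a task of DNMT3L with DNMT3A and of nuclear piRNAs. After birth they resume division and become spermatogonia, which include the stem cells kept by the niche factor GDNF and the progenitors that later answer to retinoic acid and enter meiosis.

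Total counts were 3230225 and 3394753 at P7 and 1938644 and 2151227 at E17. Levels are given as reads per 1000000 reads of the 31675 genes with counts in both deposited gene lists (RPM), and a floor of 3 counts came to 0.93 to 0.99 RPM at P7 and 1.58 to 1.74 RPM at E17. These values are not divided by length, so levels were compared within a gene and not between genes. The P7 tables rest on another gene list than all other tables of the series, so age, gene list and deposit cannot be told apart. The 9 germ cell markers summed to 4322 and 4189 RPM at P7 and to 4830 and 4765 RPM at E17, so the label was met at both ages. Summed markers of Sertoli, Leydig, myoid, stromal and endothelial cells and of macrophages were lower in both P7 libraries than in both E17 libraries, with the values given beside the genes lost at P7. Reads of a gene that overlaps another cannot be assigned with certainty, since no strand setting is known. Counts of named genes, here and below, cover 212 of the genes in the text. Of these, 94 overlap another annotated gene. Among the partners with a gene symbol of their own are those of Dnmt3a (Dnmt3aos), Tdrd9 (Rd3l), Smc1a (Ribc1), Smc1b (Fam118a), Macroh2a2 (Aifm2), Plagl1 (Hymai), Eif5b (Rev1), Dkc1 (Mpp1), Mybbp1a (Spns2), Setdb1 (Cers2), Tasor (Ccdc66), Syce2 (Gcdh), Spata22 (Aspa), Ccnd3 (Bysl), G6pdx (Ikbkg), Kcnq1ot1 (Kcnq1) and Meg3 (Rtl1). Spike-in RNA (ERCC) held 5.85% and 4.69% of counts at P7 and 0.194% and 0.231% at E17. The sources used here give no amount of added spike-in.

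The transcriptome differed between the ages in most genes. Of 14776 genes tested, 10040 (67.9%) passed an adjusted p of 0.05 in edgeR's quasi-likelihood test, 4458 higher at P7 (30.2%) and 5582 lower (37.8%). Against a log2 fold change of 1 as the null, 5565 genes passed (37.7%), 1826 higher (12.4%) and 3739 lower (25.3%). The libraries of the ages did not overlap in 12818 of the genes tested (86.7%). The median log2 fold change of all genes tested was -0.13. Upper quartile scaling shifted it to -0.47 and split the calls into 3267 higher and 6632 lower, so that 33.0% of calls were higher, against 44.4% with TMM scaling. Spike-in scaling shifted it to -4.81 and left 37 genes higher. The counts of list members below stand against these shares of all genes tested, 30.2% higher and 37.8% lower. All changes below are relative to the other genes of the same libraries, and a fall can mean fewer cells with the transcript or less of it per cell, which bulk libraries cannot tell apart.

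**Figure D1:**
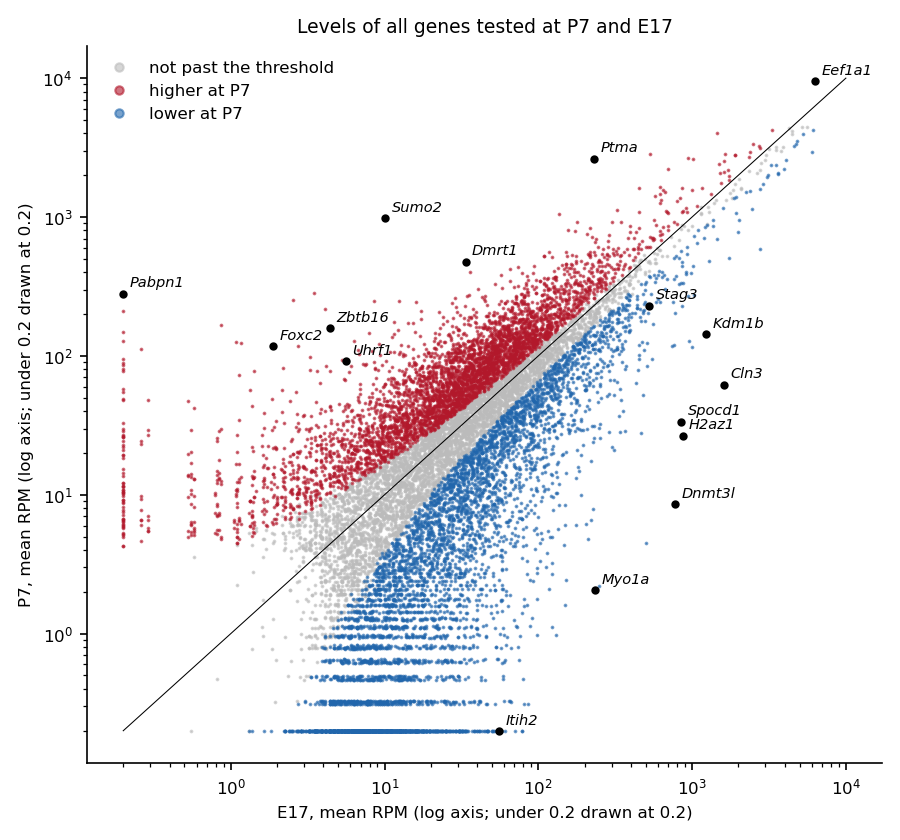
Mean RPM of each of the 14776 genes tested at P7 (y axis) against E17 (x axis), both on log axes, with genes past the threshold in red (higher at P7) and blue (lower at P7). Spocd1, Dnmt3l and Cln3 lie far below the line of equal levels, and Zbtb16, Foxc2 and Dmrt1 far above it.

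The transcripts that gained most in RPM at P7 included housekeeping and growth genes. Eef1a1, the elongation factor that brings tRNA to the ribosome, had 9508 and 9463 RPM at P7, against 6286 and 6382 RPM at E17. Ptma, which encodes prothymosin alpha of dividing cells, had 2500 and 2759 RPM at P7, against 240 and 222 RPM at E17. Prdx1, a peroxidase that removes hydrogen peroxide, had 2674 and 2972 RPM at P7, against 539 and 527 RPM at E17. The P7 libraries were the higher pair in each of these genes, with log2 fold changes of 0.74 ± 0.09, 3.67 ± 0.14 and 2.56 ± 0.11 (± standard error, edgeR). The nucleolar gene Npm1, the splicing factor Hnrnpa1, the cytoplasmic actin Actg1, the chaperone Hspa8, the prolyl isomerase Ppia and the germ cell translation factor Dazl rose as well, by log2 0.71 to 3.10. With E16 in place of E17 the sign turned for Eef1a1 (-0.04) and Hspa8 (-0.30). Sumo2 had 990 and 962 RPM at P7, against 8.12 and 12.1 RPM at E17. It averaged 15.6 RPM in wild-type GSCs, whose tables use the same gene list as E17. Housekeeping genes listed near 0 in every library of that list are taken up further on.

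The largest losses in RPM included housekeeping genes as well. Cln3, a lysosomal membrane protein gene, had 57.7 and 66.6 RPM at P7, against 1637 and 1609 RPM at E17 (log2 fold change -4.55 ± 0.14, edgeR adjusted p = 4.22e-12). Aggf1, an angiogenic factor gene, had 118 and 114 RPM at P7, against 1015 and 980 RPM at E17 (log2 fold change -2.95 ± 0.12). In both genes all P7 values lay far under the E17 values. Cln3 spans chr7:126571207-126585817 (GRCm38.p6) and overlaps Apobr. Mrpl23, the metallothionein Mt1, the ferritin Ftl1, the chaperone Hsp90aa1 and the replacement histone gene H3f3a also fell, by log2 0.53 to 2.75 in size.

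Of the 14 genes that write, read or remove DNA methylation tested, 7 rose, 4 fell and 3 did not pass. Dnmt3l and Dnmt3a were lower and the genes that copy methylation at replication higher. In the fit of genes that overlap no other gene, 5 of the list were tested, of which 3 rose and 0 fell. Dnmt3l, the cofactor that DNMT3A needs in prospermatogonia, had 7.25 and 9.92 RPM at P7, against 778 and 772 RPM at E17. It lies at chr10:78042287-78063622 and overlaps Aire. Dnmt3a, the methyltransferase it works with, had 118 and 119 RPM at P7, against 466 and 438 RPM at E17. Their log2 fold changes were -6.32 ± 0.18 and -1.77 ± 0.13 (edgeR adjusted p = 4.22e-12 and 3.98e-08), with no overlap of libraries. Dnmt3b, a further de novo enzyme, was higher, with 131 and 117 RPM at P7, against 59.7 and 56.7 RPM at E17 (log2 fold change 1.24 ± 0.21).

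Maintenance methylation genes were higher at P7. Uhrf1, which brings DNMT1 to newly replicated DNA, had 80.1 and 104 RPM at P7, against 7.54 and 3.68 RPM at E17. Dnmt1, the maintenance enzyme, had 193 and 228 RPM at P7, against 66.1 and 65.6 RPM at E17. Hells, a remodeller that opens chromatin to methylation, had 243 and 272 RPM at P7, against 82.9 and 60.9 RPM at E17. The P7 libraries were the higher pair in each, and log2 fold changes were 4.21 ± 0.32, 1.83 ± 0.16 and 2.002 ± 0.25 (edgeR adjusted p = 4.60e-08, 1.86e-07 and 6.25e-06). Mbd2, a reader of methylated DNA, rose by log2 1.95 ± 0.20.

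The promoters of Uhrf1 and Dnmt3l are shown since their transcripts moved in opposite directions, next to those of Rrm2 and Mcm2, DNA synthesis genes that rose. Each runs from 250 bases before to 49 after the first base of the gene, 5' to 3' on the gene's strand, from RefSeq on GRCm38.p6. Capitals mark TCCCGC or its reverse complement GCGGGA, letters shared with sites of E2F, the factor family that drives S phase genes. Uhrf1 is at chr17:56303087-56303386 on the plus strand, Rrm2 at chr12:24708004-24708303 on the plus strand, Mcm2 at chr6:88898731-88899030 on the minus strand and Dnmt3l at chr10:78042037-78042336 on the plus strand.
Uhrf1: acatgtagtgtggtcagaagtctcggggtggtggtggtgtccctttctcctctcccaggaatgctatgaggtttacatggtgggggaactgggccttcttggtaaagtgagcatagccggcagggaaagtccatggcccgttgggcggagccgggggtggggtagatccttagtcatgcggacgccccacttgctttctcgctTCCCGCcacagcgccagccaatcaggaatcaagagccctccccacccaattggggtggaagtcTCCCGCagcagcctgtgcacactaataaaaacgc
Rrm2: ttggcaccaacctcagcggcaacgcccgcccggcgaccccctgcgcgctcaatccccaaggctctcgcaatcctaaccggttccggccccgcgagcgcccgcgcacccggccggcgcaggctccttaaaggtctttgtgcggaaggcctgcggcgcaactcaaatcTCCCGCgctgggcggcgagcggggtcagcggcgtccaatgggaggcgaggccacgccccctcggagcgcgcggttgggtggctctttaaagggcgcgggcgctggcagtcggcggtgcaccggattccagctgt
Mcm2: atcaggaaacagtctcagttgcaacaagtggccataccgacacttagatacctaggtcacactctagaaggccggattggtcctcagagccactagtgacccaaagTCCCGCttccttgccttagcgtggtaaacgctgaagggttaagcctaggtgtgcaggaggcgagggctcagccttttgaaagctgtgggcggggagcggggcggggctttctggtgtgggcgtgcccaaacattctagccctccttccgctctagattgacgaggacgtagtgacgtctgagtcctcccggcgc
Dnmt3l: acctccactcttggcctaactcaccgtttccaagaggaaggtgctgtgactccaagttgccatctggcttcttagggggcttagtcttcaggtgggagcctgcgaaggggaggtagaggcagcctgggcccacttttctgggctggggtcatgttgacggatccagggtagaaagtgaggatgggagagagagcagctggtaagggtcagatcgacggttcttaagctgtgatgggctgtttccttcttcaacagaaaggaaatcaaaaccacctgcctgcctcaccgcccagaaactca
The letters occur at 2 places in the Uhrf1 window, at 1 place in each of the Rrm2 and Mcm2 windows and at 0 in the Dnmt3l window. CG, the pair of letters that is methylated, occurs 12 times in the Uhrf1 window, 40 times in Rrm2, 16 times in Mcm2 and 6 times in Dnmt3l.

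Of 25 piRNA pathway genes tested, 7 rose, 11 fell and 7 did not pass. The shares of 28% higher and 44% lower were near those of all genes tested (30.2% and 37.8%), and upper quartile scaling gave 3 higher and 11 lower. Among the genes that fell were members of the nuclear branch, which directs methylation to transposons. Spocd1, a nuclear partner of PIWIL4 (chr4:129928767-129957115), had 34.3 and 32.9 RPM at P7, against 845 and 854 RPM at E17. Piwil4, the nuclear Piwi protein, had 69.2 and 58.3 RPM at P7, against 420 and 442 RPM at E17. Tdrd9, a helicase that acts with it, had 141 and 99.5 RPM at P7, against 758 and 773 RPM at E17. The ages were far apart in these genes, at log2 fold changes of -4.50 ± 0.14, -2.60 ± 0.13 and -2.52 ± 0.15 (edgeR adjusted p = 4.26e-12, 1.24e-09 and 3.59e-09). Tex15, a further nuclear factor of piRNA-directed methylation, fell by log2 0.50 ± 0.11, with 399 and 410 RPM at P7, against 649 and 626 RPM at E17.

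Genes of the cytoplasmic piRNA machinery moved both ways. Piwil2, which cuts transposon RNA in the cytoplasm, had 350 and 311 RPM at P7, against 799 and 845 RPM at E17 (log2 fold change -1.16 ± 0.11). Tdrd5, a Tudor protein of piRNA precursors, had 144 and 135 RPM at P7, against 63.8 and 56.7 RPM at E17, and rose by log2 1.37 ± 0.18. The Vasa gene Ddx4 and the mitochondrial anchor gene Asz1 rose by log2 0.51 ± 0.11 and 0.80 ± 0.14. Tdrd1 had 293 and 259 RPM at P7, against 280 and 305 RPM at E17, so its ages overlapped.

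Of 14 other repressors of transposons tested, 10 rose (71.4%, against 30.2% of all genes tested), 1 fell and 3 did not pass. Among the 7 that overlap no other gene, 3 rose and 1 fell, and the median log2 fold change was 0.47, against 1.31 for all 14. Setdb1, which trimethylates histone H3 lysine 9 at retroviruses, had 264 and 237 RPM at P7, against 88.1 and 72.5 RPM at E17 (log2 fold change 1.80 ± 0.18, edgeR adjusted p = 5.65e-07). Of the HUSH complex, which silences long transposons with MORC2A, Tasor rose by log2 2.25 ± 0.40, Pphln1 by 3.10 ± 0.18 and Morc2a by 1.04 ± 0.22. The heterochromatin proteins Cbx1 and Cbx3 were at 74.8 and 67.9 RPM and at 304 and 251 RPM at P7, against 12.8 and 22.6 RPM and 70.7 and 83.5 RPM at E17, and rose as well. The gene that fell was Ehmt2, which dimethylates H3 lysine 9, with 282 and 266 RPM at P7, against 966 and 1081 RPM at E17 (log2 fold change -1.75 ± 0.12). Its partner Ehmt1 rose, with 52.8 and 57.0 RPM at P7, against 18.0 and 13.7 RPM at E17 (log2 fold change 1.96 ± 0.27). The libraries of the ages did not overlap in Setdb1, Ehmt2 or Ehmt1, and the members of this enzyme pair moved in opposite directions.

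**Figure D2:**
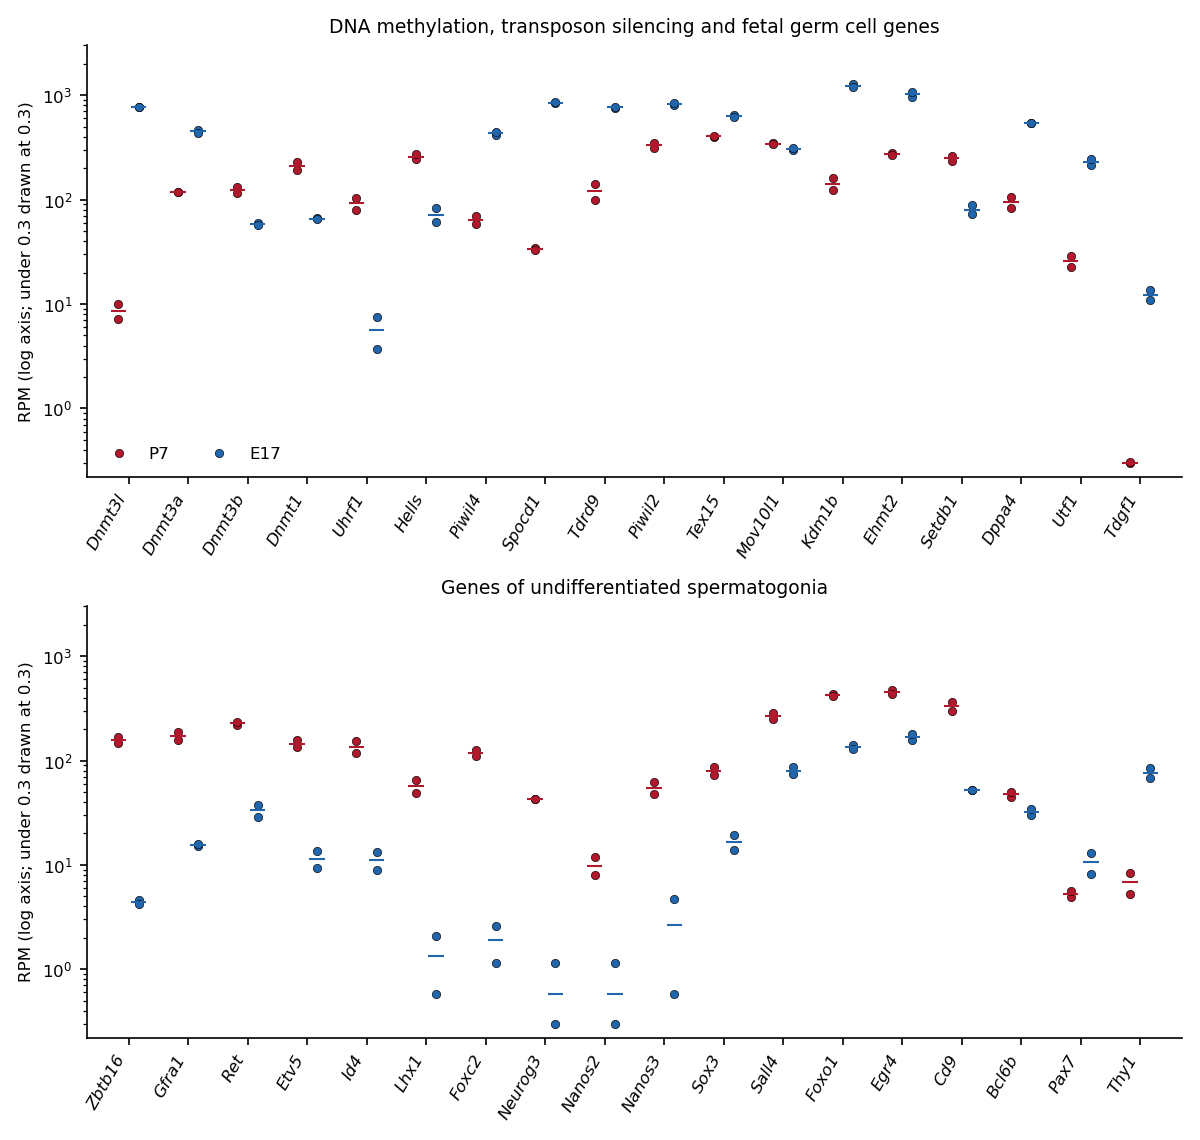
RPM in each library (points) and the mean of each age (bars) on log axes, P7 in red to the left of E17 in blue, for methylation, silencing and fetal genes (top) and for genes of undifferentiated spermatogonia (bottom). Dnmt3l is at 7.25 and 9.92 RPM at P7 against 778 and 772 RPM at E17, while Zbtb16 stands at 169 and 147 RPM at P7 against 4.64 and 4.20 RPM at E17.

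Genes known from fetal male germ cells were mostly lower at P7: of 15 tested, 11 fell, 3 rose and 1 did not pass, with a median log2 fold change of -1.86. The 3 that rose were Nanos2 and Nanos3, given further on, and Tfap2c (log2 fold change 1.92 ± 0.58). Dppa4, a chromatin factor of pluripotent and germ cells, had 105.5 and 83.4 RPM at P7, against 543 and 547 RPM at E17 (log2 fold change -2.37 ± 0.13). Utf1, which is not among these 15 and is counted in lists below, is a chromatin factor seen in prospermatogonia and in some spermatogonia. It had 22.7 and 28.8 RPM at P7, against 216 and 247 RPM at E17 (log2 fold change -3.00 ± 0.17, edgeR adjusted p = 2.53e-09). Both genes kept a clear level at P7, where no library came near the E17 values. Tdgf1, the co-receptor of Nodal, had 1 count in all at P7, against 45 at E17, which is 77.6-fold lower (exact 95% counting interval 13.2 to 3133). The germ cell specification genes Prdm1 and Prdm14 fell by log2 2.96 ± 0.50 and 3.72 ± 0.72.

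The pluripotency genes gave no common direction, with 9 of 24 higher, 10 lower and 5 not past the threshold. Pou5f1, the factor OCT4, had 30.0 and 24.2 RPM at P7, against 93.4 and 90.3 RPM at E17 (log2 fold change -1.60 ± 0.19), and Nanog fell by log2 2.49 ± 0.68. Nanog no longer passed without the second E17 library or without the first P7 library (edgeR adjusted p = 0.0612 and 0.0543). Sall4, a zinc finger factor of spermatogonia, had 284 and 248 RPM at P7, against 85.8 and 74.6 RPM at E17 (log2 fold change 1.89 ± 0.17). The AKT co-activator Tcl1 rose by log2 3.03 ± 0.27. The RNA-binding genes Lin28a and Lin28b, which block let-7 microRNAs, rose by 3.06 ± 0.59 and 2.04 ± 0.28. Trim71, a let-7 target that represses mRNAs, had 252 and 249 RPM at P7, against 3.48 and 1.57 RPM at E17 (log2 fold change 6.78 ± 0.29, edgeR adjusted p = 1.94e-10). It averaged 8.70 RPM in wild-type GSCs, whose tables use the same gene list as E17. Age and gene list cannot be told apart for Trim71.

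Genes of undifferentiated spermatogonia were mostly higher at P7, with 27 of 39 higher, 5 lower and 7 not past the threshold (median log2 fold change 2.04). Zbtb16, the factor PLZF that stem cells need for self-renewal, had 169 and 147 RPM at P7, against 4.64 and 4.20 RPM at E17. Foxc2, a forkhead factor of a subset of stem cells, had 125 and 110 RPM at P7, against 1.16 and 2.63 RPM at E17. Id4, an inhibitor of helix-loop-helix factors, had 155 and 117 RPM at P7, against 13.3 and 8.93 RPM at E17. These genes were near the floor or low in both E17 libraries and well above it in both P7 libraries, at log2 fold changes of 5.30 ± 0.28, 6.05 ± 0.34 and 3.77 ± 0.28 (edgeR adjusted p = 1.48e-09, 2.58e-09 and 4.01e-08).

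Neurog3, a factor of progenitors, had 42.5 and 42.5 RPM at P7 and 2 counts in all at E17, which is 77.1-fold higher at P7 (exact 95% counting interval 21.1 to 640). It averaged 2.07 RPM in wild-type GSCs, and age and gene list cannot be told apart for it. Nanos2, the translational repressor of fetal male germ cells and stem cells, had 62 counts at P7 and 2 at E17, or 18.0-fold more for the depth (interval 4.77 to 152). Nanos3, its relative in progenitors, rose by log2 4.46 ± 0.46. Sall1, Sox3, Foxo1, Glis3 and the surface genes Cd9, Epcam, Itga6 and Cdh1 also rose, by log2 1.74 to 3.74. The members that fell were Thy1, T, Tspan8, Taf4b and Utf1, with log2 fold changes of -0.62 to -3.31. Taf4b, a gonadal TFIID subunit gene, no longer passed without the first E17 library (log2 fold change -0.40, edgeR adjusted p = 0.0972).

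The GDNF receptor genes Gfra1 and Ret and some targets of GDNF rose with the stem cell genes. Gfra1, the receptor that binds GDNF, had 186 and 158 RPM at P7, against 15.1 and 15.8 RPM at E17 (log2 fold change 3.63 ± 0.23, edgeR adjusted p = 8.66e-09). Ret, its signalling partner, had 219 and 236 RPM at P7, against 29.0 and 37.8 RPM at E17 (log2 fold change 2.92 ± 0.20). Etv5, a factor induced by GDNF and FGF, had 156 and 134 RPM at P7, against 9.28 and 13.7 RPM at E17 (log2 fold change 3.80 ± 0.24). In these 3 genes both P7 libraries were above both E17 libraries. The co-receptors for related ligands, Gfra2 and Gfra3, fell by log2 2.08 ± 0.46 and 1.37 ± 0.36. Gfra3 did not pass without the second E17 library (-1.04, edgeR adjusted p = 0.0937), nor Gfra2 with E16 in place of E17 (-1.10, edgeR adjusted p = 0.0586). Lhx1, a further GDNF target, rose by log2 5.46 ± 0.46. Other factor genes of the same list did not rise. Bcl6b and Etv4 did not pass (log2 fold change 0.72 ± 0.32 and 0.47 ± 0.39), and Etv1 fell by log2 2.43 ± 0.85.

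Several genes known to be induced by ERK signalling were higher at P7. Dusp6, a phosphatase that turns ERK off, had 81.1 and 74.1 RPM at P7, against 2.32 and 0.53 RPM at E17 (log2 fold change 5.91 ± 0.42). The feedback inhibitors Spry4, Spry1, Spred1 and Spred2 rose by log2 1.81 to 4.02. The list of early response and heat shock genes as a whole was near the background, with 11 of 33 higher (33.3%), 7 lower and 15 not past the threshold. Of its members Egr2 rose by log2 4.06 ± 0.27 and Egr1 by 2.53 ± 0.22, while the heat shock genes Hspb1 and Hsph1 fell by 4.71 ± 0.38 and 1.32 ± 0.14. Of the 25 genes of GDNF, FGF and KIT reception and their outputs tested, 14 rose, 5 fell and 6 did not pass. The 14 include Dusp5, which had 0 counts in each E17 library and was under 1.5 RPM in each library of the other gene list. Its rise is not read as one of age.

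Of the other pathways that reach spermatogonia, BMP and TGF-beta receptors and SMADs leaned to P7. In that list 12 of 25 genes rose, 6 fell and 7 did not pass. Smad3, which carries activin and TGF-beta signals, had 41.9 and 39.7 RPM at P7, against 6.38 and 2.63 RPM at E17 (log2 fold change 3.34 ± 0.40), and Bmpr1a, a BMP receptor, had 160 and 143 RPM at P7, against 52.8 and 50.9 RPM at E17 (log2 fold change 1.70 ± 0.19). Of Notch, WNT and Hedgehog genes 15 of 29 rose, 7 fell and 7 did not pass. The receptor genes Notch1 and Notch2 rose by log2 2.93 ± 0.45 and 2.22 ± 0.37, while Notch3 fell by 3.84 ± 0.48 and the ligand Jag2 by 1.19 ± 0.21. Beta-catenin (Ctnnb1) had 559 and 547 RPM at P7, against 567 and 560 RPM at E17, and did not pass.

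Genes of differentiating spermatogonia did not move as 1 group: of 17 tested, 6 rose, 7 fell and 4 did not pass. Stra8, the retinoic acid target that marks entry into differentiation and meiosis, had 83.4 and 92.6 RPM at P7, against 9.28 and 5.25 RPM at E17 (log2 fold change 3.76 ± 0.33, edgeR adjusted p = 2.08e-07). Dmrt1, which holds spermatogonia back from meiosis (chr19:25505618-25604328), had 465 and 489 RPM at P7, against 34.8 and 32.6 RPM at E17 (log2 fold change 3.98 ± 0.17, edgeR adjusted p = 1.94e-10). Kit, the receptor that differentiating cells need, had 24.1 and 29.7 RPM at P7, against 54.5 and 50.4 RPM at E17 (log2 fold change -0.80 ± 0.22). Kit no longer passed without the first E17 library or without the first P7 library (edgeR adjusted p = 0.0536 and 0.0717). Stra8 and Dmrt1 were thus higher in both P7 libraries and Kit lower in both. The paired factors Sohlh1 and Sohlh2, which drive differentiation, moved apart: Sohlh1 fell by log2 0.74 ± 0.13 and Sohlh2 rose by 2.18 ± 0.32. Ly6k had 2 counts in all at P7, against 219 at E17, and was 189-fold lower (exact 95% counting interval 51.7 to 1569).

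Genes of retinoic acid synthesis, transport and reception were mostly lower at P7, with 11 of 20 lower, 5 higher and 4 not past the threshold. Aldh1a2, which makes retinoic acid, had 19.8 and 19.8 RPM at P7, against 109 and 133 RPM at E17 (log2 fold change -2.45 ± 0.19). The carrier gene Rbp4 fell by log2 2.39 ± 0.21. Of the receptors, Rara rose by log2 2.53 ± 0.53 and Rxrg fell by 2.59 ± 0.43. Rdh10, which makes the precursor retinal, rose by log2 1.87 ± 0.43.

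Of 36 meiotic genes tested, 15 rose, 8 fell and 13 did not pass, and upper quartile scaling turned this to 10 higher and 11 lower. Sycp1, the transverse filament of the synaptonemal complex, had 211 and 207 RPM at P7, against 16.8 and 17.8 RPM at E17 (log2 fold change 3.74 ± 0.23, edgeR adjusted p = 5.46e-09). The central element gene Syce2 and the X-linked gene Tex11 rose by log2 2.13 ± 0.16 and 2.70 ± 0.25. Spo11, which cuts DNA to start recombination, had 7.58 and 11.8 RPM at P7, against 105 and 107 RPM at E17 (log2 fold change -3.28 ± 0.33). Hormad1, a protein of unsynapsed axes, had 82.4 and 83.7 RPM at P7, against 231 and 229 RPM at E17 (log2 fold change -1.31 ± 0.14), and Spata22 fell by 3.23 ± 0.57. In the genes given by library here, P7 and E17 were well separated. RNA levels do not show whether meiosis had begun. The spermatid genes Prm1, Prm2 and Tnp2 were at 0 counts in both P7 libraries.

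Proliferation genes rose almost without exception. Of 35 genes of replication licensing and DNA synthesis, 34 rose, 0 fell and 1 did not pass (median log2 fold change 1.39), against 30.2% of all genes tested that rose. Mcm2, a subunit of the replicative helicase, had 299 and 394 RPM at P7, against 73.1 and 57.2 RPM at E17 (log2 fold change 2.57 ± 0.18, edgeR adjusted p = 1.71e-08). Rrm2, which makes deoxynucleotides, had 37.9 and 51.7 RPM at P7, against 4.64 and 6.83 RPM at E17 (log2 fold change 3.10 ± 0.37). Tyms, which makes thymidylate, had 89.0 and 91.4 RPM at P7, against 7.54 and 9.45 RPM at E17 (log2 fold change 3.55 ± 0.27). All P7 values of these genes were above all E17 values. The exception was Pole, the leading strand polymerase, with 244 and 187 RPM at P7, against 234 and 246 RPM at E17.

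Of 30 genes of the S, G2 and M phases, 27 rose, 0 fell and 3 did not pass (median log2 fold change 1.54). Mki67, the marker of dividing cells, had 162 and 156 RPM at P7, against 20.9 and 25.2 RPM at E17 (log2 fold change 2.94 ± 0.21, edgeR adjusted p = 2.65e-08). Aurkb, a kinase of chromosome segregation, had 109 and 103 RPM at P7, against 12.8 and 8.93 RPM at E17 (log2 fold change 3.45 ± 0.25). Cdk1, the kinase that starts mitosis, had 90.3 and 83.4 RPM at P7, against 17.4 and 13.7 RPM at E17 (log2 fold change 2.64 ± 0.26). None of these E17 values reached any P7 value, though each gene had reads in both E17 libraries. Kif23, Nusap1 and Prc1, genes of the spindle midzone, were the 3 that did not pass.

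The genes of the G1 phase showed which cyclins went with this. Ccnd2, the D cyclin of spermatogonia, had 200 and 214 RPM at P7, against 22.03 and 23.1 RPM at E17 (log2 fold change 3.35 ± 0.19), and Ccnd1 rose by 2.81 ± 0.28. Ccnd3 had 34.6 and 48.0 RPM at P7, against 88.1 and 81.4 RPM at E17 (log2 fold change -0.87 ± 0.24), but did not pass without the first P7 library (-0.62, edgeR adjusted p = 0.0814). The CDK inhibitor Cdkn1c, an imprinted gene, had 81.1 and 70.3 RPM at P7, against 224 and 247 RPM at E17 (log2 fold change -1.48 ± 0.15). The D cyclins thus moved in both directions, with the libraries of the ages apart in each. The p27 gene Cdkn1b, at 10.9 and 6.82 RPM at P7, against 6.38 and 7.88 RPM at E17, did not pass. Mycn, a MYC factor of stem cells, rose by log2 4.71 ± 0.36, and Myc was at 0 counts in both P7 libraries and at 4.06 and 5.25 RPM at E17, which is at least 4.85-fold lower. Trp53, the p53 gene, had 53.4 and 60.1 RPM at P7, against 1.16 and 3.15 RPM at E17 (log2 fold change 4.81 ± 0.40).

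**Figure D3:**
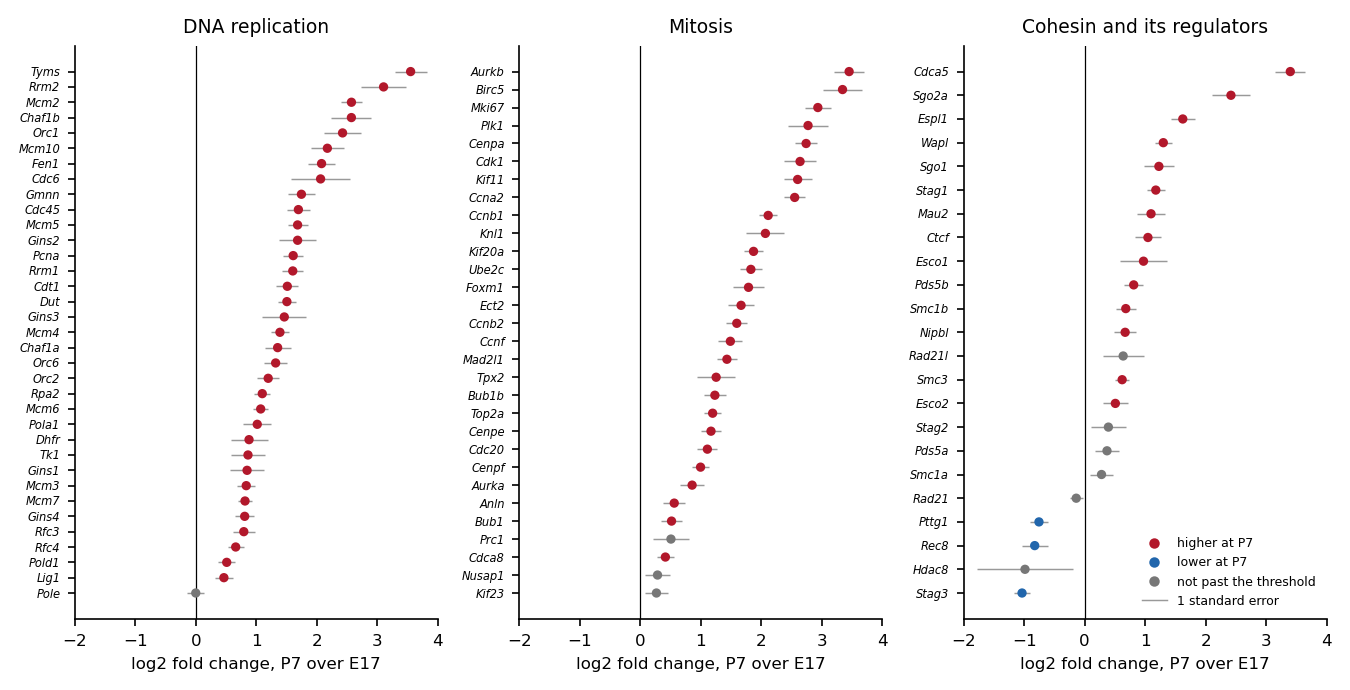
Log2 fold change of P7 over E17 (points) with 1 standard error (lines) for each tested gene of DNA replication, of the mitotic phases and of cohesin and its regulators, red where higher at P7, blue where lower and grey where not past the threshold. All points of replication but Pole lie above 0, while Stag3, Rec8 and Pttg1 are the 3 called points below 0 in the cohesin panel.

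Transcripts of cohesin, the ring that holds sister chromatids and shapes loops, did not move together. Stag3, the SA subunit of germ cells (chr5:138272514-138312397), had 413 and 466 RPM at E16, 537 and 517 RPM at E17 and 228 and 233 RPM at P7. The log2 fold change of P7 over E17 was -1.03 ± 0.13 (edgeR adjusted p = 5.05e-06), and both P7 libraries were under all 4 fetal libraries. Stag1, the ubiquitous counterpart, had 199.5 and 191 RPM at P7, against 91.0 and 101 RPM at E17 (log2 fold change 1.176 ± 0.14, edgeR adjusted p = 5.50e-06). Stag2, the other ubiquitous subunit, had 68.2 and 48.3 RPM at P7, against 43.5 and 55.1 RPM at E17, with overlapping ages. It did not pass here (log2 fold change 0.39 ± 0.28, edgeR adjusted p = 0.232) but passed without the first or the second E16 library (0.42 and 0.40, edgeR adjusted p = 0.0298 and 0.0371) and with E16 in place of E17 (1.03, edgeR adjusted p = 0.00676). Stag3 overlaps Gpc2 and Gal3st4, and Stag1 overlaps annotated pseudogenes, which limits both values.

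The other subunits of the ring moved less. Rad21, the mitotic kleisin, had 659 and 586 RPM at P7, against 773 and 756 RPM at E17 (log2 fold change -0.14 ± 0.11, not past the threshold). Rec8, the meiotic kleisin, had 31.7 and 48.3 RPM at P7, against 78.3 and 80.3 RPM at E17 (log2 fold change -0.83 ± 0.21). It did not pass without the first P7 library (-0.52, edgeR adjusted p = 0.0799). The core gene Smc3 rose by log2 0.62 ± 0.12 and the meiotic Smc1b by 0.68 ± 0.17, while Smc1a, at 69.2 and 56.4 RPM at P7, against 60.3 and 55.1 RPM at E17, did not pass. So the germline subunits did not move together: Stag3 and Rec8 fell and Smc1b rose.

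Several genes that load, release or protect cohesin were higher at P7. Cdca5, the sororin that holds rings closed after replication, had 130 and 112 RPM at P7, against 14.5 and 11.03 RPM at E17 (log2 fold change 3.40 ± 0.25, edgeR adjusted p = 3.29e-08). Wapl, which opens the ring, had 417 and 337 RPM at P7, against 164 and 177 RPM at E17 (log2 fold change 1.30 ± 0.14). Sgo2a, which shields cohesin at centromeres, had 81.1 and 83.0 RPM at P7, against 17.4 and 16.8 RPM at E17 (log2 fold change 2.42 ± 0.31). In these genes both P7 libraries stood above both E17 libraries. The loader Mau2, the separase Espl1 and the insulator factor Ctcf rose by log2 1.05 to 1.62, and securin (Pttg1) fell by 0.76 ± 0.14. In all, 14 of 23 cohesin genes rose, 3 fell and 6 did not pass. Of condensin and SMC5/6 genes 13 of 16 rose, 1 fell and 2 did not pass. Upper quartile scaling gave 8 higher and 3 lower, and of the 5 that overlap no other gene 4 rose and 0 fell.

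Of 38 histone lysine methyltransferase and demethylase genes 21 rose, 7 fell and 10 did not pass. Upper quartile scaling gave 16 higher and 13 lower, and the 17 that overlap no other gene had a median log2 fold change of -0.03, against 0.71 for all 38. Kdm1b, the demethylase of H3 lysine 4 known from imprinting in oocytes, had 162 and 124 RPM at P7, against 1287 and 1190 RPM at E17 (log2 fold change -2.96 ± 0.14, edgeR adjusted p = 4.21e-10). The gap between the ages was far wider than that between libraries, although Kdm1b (chr13:47043373-47085279) overlaps Dek. Kmt2b, which methylates H3 lysine 4, fell by log2 1.20 ± 0.14, while its relatives Kmt2a, Kmt2c and Kmt2d rose by 1.55 to 1.81. Suv39h1, which trimethylates H3 lysine 9 in heterochromatin, rose by log2 2.60 ± 0.23. Of Polycomb and PRC1.6 genes 15 of 29 rose, 6 fell and 8 did not pass. The H3 lysine 27 methyltransferase genes moved apart, Ezh2 up by log2 0.79 ± 0.22 and Ezh1 down by 1.01 ± 0.16, and Ezhip, an inhibitor of that enzyme, fell by 1.25 ± 0.28. Ezh2 did not pass without the second E17 library (0.52, edgeR adjusted p = 0.129). The macroH2A genes Macroh2a1 and Macroh2a2 rose by log2 1.58 ± 0.17 and 2.48 ± 0.19.

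Of 34 imprinted genes tested 15 fell (44.1%, near the 37.8% of all genes tested), 7 rose and 12 did not pass. Grb10, a brake on insulin signalling, had 18.5 and 25.7 RPM at P7, against 315 and 288 RPM at E17 (log2 fold change -3.61 ± 0.18, edgeR adjusted p = 7.95e-10). Slc38a4, an amino acid transporter, had 22.1 and 23.9 RPM at P7, against 184 and 207 RPM at E17 (log2 fold change -2.93 ± 0.18). Every P7 value of these genes was far under every E17 value. Plagl1, Meg3, Dlk1 and Rasgrf1 fell by log2 1.95 to 3.30 in size, and the long RNA Kcnq1ot1, antisense to Kcnq1, rose by 4.38 ± 0.45. H19 had 12.9 and 10.8 RPM at P7, against 11.02 and 12.6 RPM at E17, so the ages overlapped. Counts do not separate the parental alleles.

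Of 28 genes of glycolysis and glucose uptake 13 fell (46.4%, against 37.8% of all genes tested), 7 rose and 8 did not pass. Ldha, which makes lactate, had 30.3 and 28.5 RPM at P7, against 202 and 176 RPM at E17 (log2 fold change -2.53 ± 0.17), and the glucose transporter Slc2a3 fell by 2.29 ± 0.17. Pdk1, a kinase that inhibits pyruvate dehydrogenase, had 143 and 146 RPM at P7, against 24.9 and 27.3 RPM at E17 (log2 fold change 2.62 ± 0.20). The P7 libraries were thus the lower pair for Ldha and the higher pair for Pdk1. In the pentose phosphate path the entry enzyme G6pdx rose by log2 2.42 ± 0.29 and Rpia by 2.74 ± 0.27, while Tkt had 35.3 and 45.2 RPM at P7, against 355 and 358 RPM at E17 (log2 fold change -2.98 ± 0.16). Asns, which makes asparagine, had 28.4 and 27.9 RPM at P7, against 344 and 339 RPM at E17 (log2 fold change -3.44 ± 0.14, edgeR adjusted p = 1.87e-10). Of nuclear genes of oxidative phosphorylation 35 of 76 rose, 14 fell and 27 did not pass, and upper quartile scaling turned this to 22 higher and 27 lower.

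**Figure D4:**
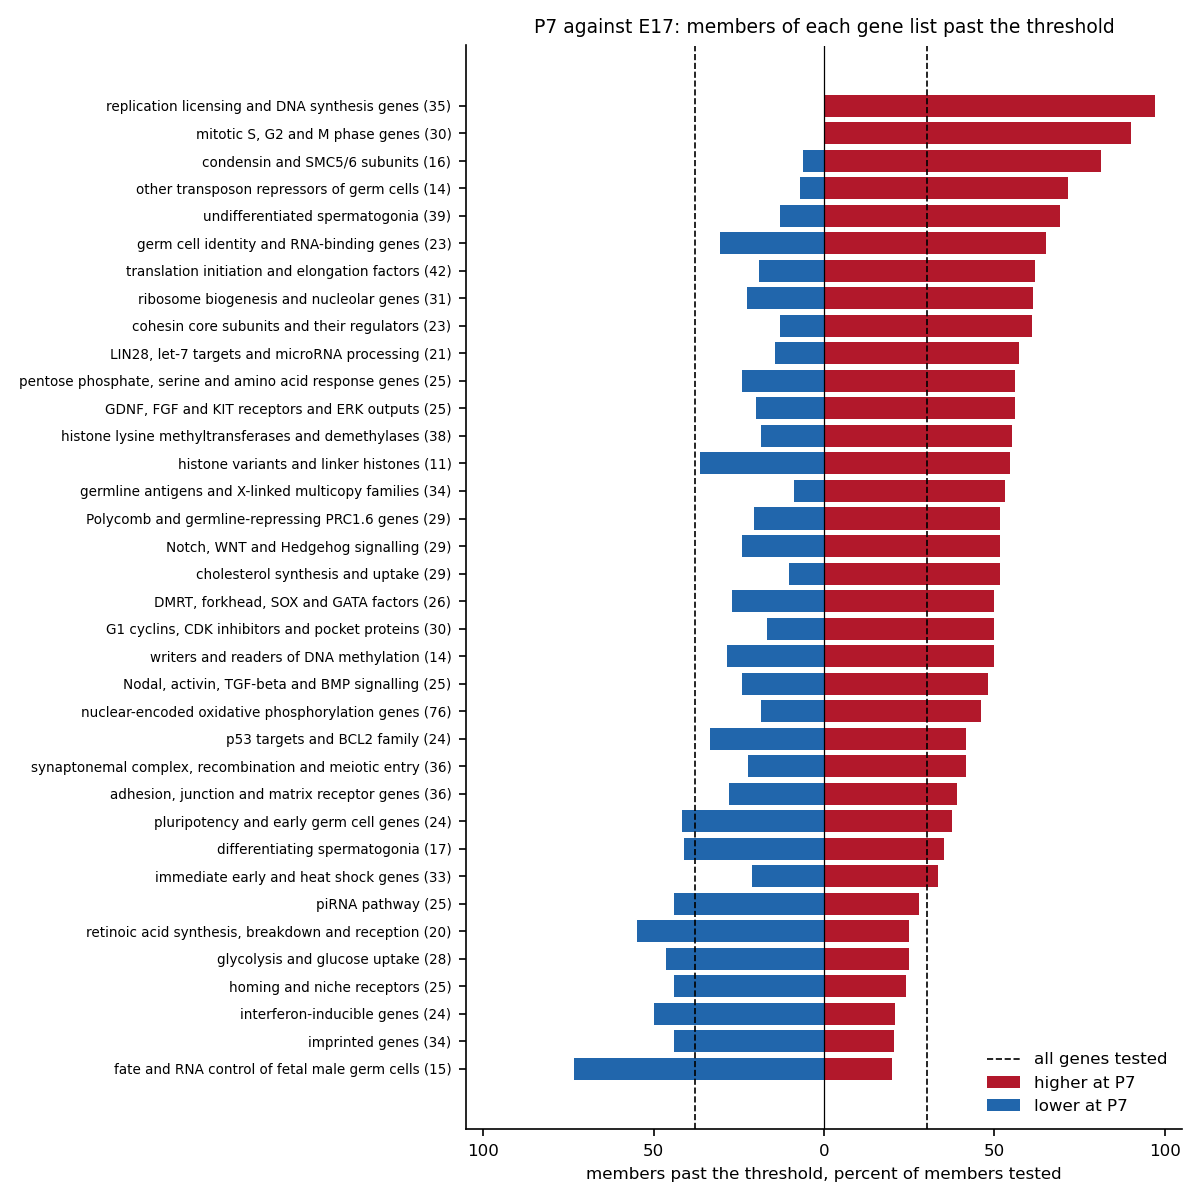
Share of the tested members of each of the 36 gene lists (number in brackets) that passed the threshold, higher at P7 to the right in red and lower at P7 to the left in blue, with dashed lines at the shares of all genes tested (30.2% and 37.8%). Replication (34 of 35 higher) and the mitotic phases (27 of 30 higher) stand at the top and the fetal germ cell list (11 of 15 lower) at the bottom.

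The P7 libraries held fewer kinds of transcripts. At a common depth of 1724583 counts, 16316 and 16267 genes had a read at P7, against 21132 and 21161 at E17. Among genes that overlap no other annotated gene the numbers were 8572 and 8563 at P7, against 11510 and 11531 at E17. Weakly detected genes set the ages apart: 6399 and 6548 genes had 1 to 20 RPM at P7, against 10800 and 11127 at E17. Genes under 20 RPM held 4.72% and 4.74% of counts at P7, against 7.45% and 7.50% at E17. The E16 libraries, of the same gene list and genotype as E17, gave 19267 and 18670 genes at that depth. Wild-type GSCs, whose tables share that gene list, gave 14558 and 14660 genes. ERCC held 1.22% and 1.52% of counts at E16 and 3.12% and 2.90% in wild-type GSCs, all between its shares at E17 and P7. The number of genes at E16 also lay between those of E17 and P7, while that of wild-type GSCs was under that of P7. The part of ERCC in the number of genes detected was not tested.

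Of 7584 genes with at least 20 RPM in both E17 libraries, 55 had 0 counts in both P7 libraries. Those named for their level at E17 include genes known from other tissues. Itih2, a plasma protein gene of the liver, had 54.5 and 57.2 RPM at E17 and was at least 58.2-fold lower at P7. Zp2, which encodes a protein of the egg coat, had 37.7 and 55.1 RPM at E17 and was at least 48.4-fold lower at P7. The B cell gene Cd22, the pituitary factor gene Tbx19, the intestinal receptor gene Gucy2c and the muscle myosin Myh8 were at 36.2 to 60.4 RPM in the E17 libraries and at 0 counts at P7. Of the 55 genes, 54 had at least 5 RPM at E16, 50 were under 1 RPM in wild-type GSCs and 35 overlap no other annotated gene. These genes passed the 20 RPM limit through E17 alone, so their fall is set by the choice, and their levels at E17 are the observation.

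Sums of markers of other cell types were lower at P7 too, beside which the losses above have to be read. The 16 Sertoli cell markers summed to 369 and 392 RPM at P7 and to 832 and 785 RPM at E17. Ctsl alone held 275 and 258 RPM at P7 and 373 and 321 RPM at E17, and it averaged 337 RPM in wild-type GSCs. Sox9 had 9.56 and 6.51 RPM at P7, against 4.06 and 5.25 RPM at E17. Sox9, Wt1, Gata4, Cst9, Dhh, Aard and Ctsl did not pass, so the lower sum does not hold for each marker. Amh, a defining gene of fetal Sertoli cells, was at 0 counts in all 4 libraries, and Krt18 had 3.96 and 0.93 RPM at P7, against 151 and 151 RPM at E17. Endothelial markers summed to 37.6 and 42.8 RPM at P7 and to 187 and 168 RPM at E17, of which Tie1 held 89.3 and 69.3 RPM at E17, while Cdh5 and Kdr were under 8 RPM in every library of both ages. Stroma summed to 121 and 148 RPM at P7 and to 349 and 327 RPM at E17, myoid markers to 30.0 and 38.1 RPM at P7 and to 185 and 189 RPM at E17, and Leydig markers to 9.23 and 3.72 RPM at P7 and to 51.6 and 46.7 RPM at E17. Macrophage markers were at 6.59 and 6.82 RPM at P7 and at 22.6 and 27.3 RPM at E17, with Cd74 at 0 in all 4 libraries. The oocyte list gave 25.7 and 30.1 RPM at P7 and 135 and 159 RPM at E17, and the spermatocyte and spermatid list 49.1 and 40.3 RPM at P7 and 207 and 208 RPM at E17, although a testis of these ages holds neither oocytes nor spermatids. Of the markers tested, 6 of 13 fell in the Sertoli list, 3 of 4 in the Leydig list, 5 of 6 in the myoid list, 4 of 7 in the stromal list, 5 of 8 in the endothelial list and 1 of 3 in the macrophage list, against 37.8% of all genes tested, so that the Sertoli and macrophage counts are near the background. Of the 9 germ cell markers 5 fell (55.6%), 3 rose and 1 did not pass, so falls were not particular to markers of other cell types. Col1a1, a collagen gene of the stromal list, rose by log2 1.08 ± 0.26, with 57.7 and 66.0 RPM at P7, against 29.0 and 36.2 RPM at E17. Erythroid markers differed widely between the P7 libraries, at 12.5 and 82.7 RPM at P7 and 92.8 and 111 RPM at E17. The part of other cells in the genes that fell was not tested.

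**Figure D5:**
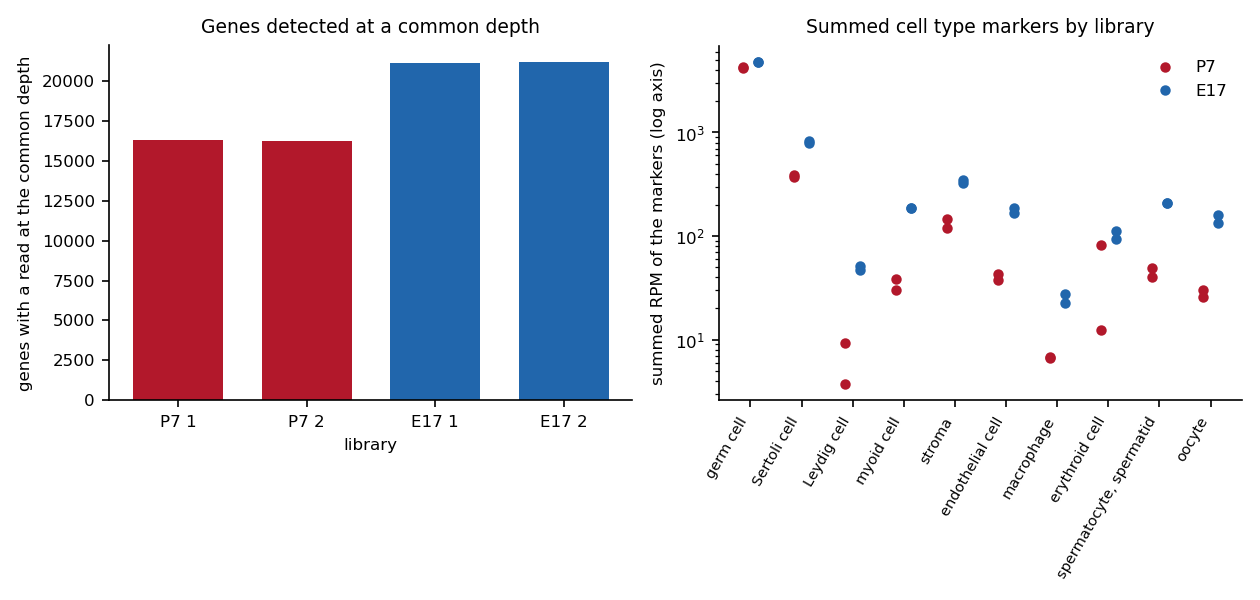
Left, number of genes with a read after scaling each library to 1724583 counts, with P7 libraries in red and E17 libraries in blue. Right, summed RPM of each marker list on a log axis, where germ cell markers are at 4189 to 4830 RPM in all 4 libraries and every other list is lower in both P7 libraries than in both E17 libraries.

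The opposite pattern was found mostly in genes near 0 in every library of the other gene list. Of 7092 genes with at least 20 RPM in both P7 libraries, 23 had 0 counts in both E17 libraries, and 21 of these were under 1.5 RPM in each of the 10 libraries that share the other gene list, 17 of them overlapping another annotated gene. They include genes used in every cell. Pabpn1, which binds the poly(A) tail in the nucleus, had 279 and 282 RPM at P7 and 0 counts in each E17 library. Adnp had 214 and 208 RPM and Csnk2b, a subunit of casein kinase 2, had 135 and 121 RPM at P7, with 0 counts at E17. Ddi2, Dync1li1, Rbm4, Cmtr1, Fkbp2, Scamp3, Rpp14, Mcts2, Lbhd1, Usp49, Dusp5 and Mef2b belong to the same set. Since age and gene list cannot be told apart, no rise at P7 is read from them, although Dusp5 stays in the count of its gene list. In the reverse direction, H2az1, a histone variant gene used in every cell, had 26.1 and 27.3 RPM at P7, against 879 and 857 RPM at E17, and averaged 1213 RPM in wild-type GSCs. Leaving out the 24 genes at 20 RPM or more at P7 that were under 1.5 RPM in each library of the other list left 10015 genes past the threshold. So small a set could move that count only a little. The limit also passes over Sumo2, Mob1a and Marchf7, which averaged 976, 166 and 111 RPM at P7. They reached at most 16.5, 10.6 and 6.22 RPM in the libraries of the other list, and for them too age and gene list cannot be told apart. Trim71 and Neurog3 averaged 251 and 42.5 RPM at P7. They reached at most 9.485 and 4.20 RPM in those libraries, and the same holds for them.

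Promoter letters differed between the sets of genes. Of the 14776 genes tested, 11848 have a RefSeq promoter of 250 bases before to 50 after the start. TCCCGC, searched on both strands, occurred in 39.6% of promoters of genes higher at P7, against 33.7% of those of all genes tested. CACGTG, the E-box bound by MYC and its relatives, occurred in 11.4% against 10.1%, and GGGCGG, the box of the SP factors, in 68.1% against 60.7%. The median number of CG was 23 in promoters of higher genes and 20 in those of all tested. Of the 28 replication genes with a promoter, 18 (64.3%) held TCCCGC, and of 25 genes of the mitotic phases 11 (44.0%) did. Of the genes lower at P7 77.7% have a promoter in the table, under the 80% needed, so the check is void for them, as it is for the cohesin, piRNA, DNA methylation and spermatogonia lists.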

How the data were processed

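Testis germ cells at P7 and E17 were measured by SC3-seq in 2 libraries each. The tools named in the submitters' processing notes are TopHat2 2.1.1, HTSeq 0.9.1, Salmon 1.4.0 and cutadapt 1.18, with the build GRCm38.p6 and no strand setting. Each library came as the authors' deposited table of whole-number read counts per gene, used as it stands. The P7 tables were joined to the others by Entrez ID. Spike-in, transgene and mitochondrial rows were left out, and the genes kept held 99.7% of the other counts.

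Counts were tested in edgeR 4.0.16 under R 4.3.3 (quasi-likelihood test, TMM scaling, filterByExpr, a coefficient per group, 6 in vivo libraries) with Benjamini-Hochberg adjusted p at 0.05, and glmTreat gave the test against a log2 fold change of 1. DESeq2 1.42.0 was an alternative. In simulated counts over 13955 genes modelled on these libraries, 60% of 2-fold and 98% of 4-fold changes were recovered. RPM are per 1000000 counts of the shared genes. Standard errors are the log2 fold change over the root of the F statistic. Intervals and floors cover counting error only.

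The comparison, the members and the gene lists were chosen with earlier results of these data known. Named genes are the 15 largest rises and falls in log2 fold change, the 10 largest in RPM and list members; some are not reported here. Gene positions, overlaps and promoters are from RefSeq on GRCm38.p6.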

Additional observations from a re-analysis of the deposited data

Results flagged for a closer look

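The tables hold rows named as transgene sequences that no comparison used. The row named Transgene_EF1a_pA had 151 and 128 counts in the P7 libraries and 32 and 30 counts in the E17 libraries. The row named Transgene_BGH_pA had 88 and 153 counts at P7 and 36 and 44 counts at E17. The reporter carried by the mice is Vasa-RFP, and which row it feeds is not stated in the labels. With 2 libraries a group, no gene was checked for a library that stands apart from the others of its age.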

How the results depend on the processing

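The count of 10040 genes past the threshold stayed within 1.5 times its value under RLE and upper quartile scaling, without the low count filter, with DESeq2, with 4 or 12 libraries in the fit and with E16 in place of E17. It was 5383 (2326 higher, 3057 lower) among genes that overlap no other, and 5565 (1826 higher) against a log2 fold change of 1; fewer genes were tested in the first. Spike-in scaling gave 37 higher and 14486 lower and left 0 of 36 gene lists with more members higher than lower, against 27; the cause was not tested. Upper quartile scaling gave 22 such lists, with the meiosis and oxidative phosphorylation lists turned, and E16 in place of E17 gave 24, with the oxidative phosphorylation and histone variant lists turned. Leaving out each library in turn gave 8120 to 12078 genes called, 3559 to 5320 higher and 4561 to 6758 lower, 27 lists, and 190 to 194 of the 194 genes named as past the threshold. Of those genes, 110 overlap no other gene and passed.

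The sign of Eef1a1 (-0.043), Hspa8 (-0.30), Smc1a (-0.12) and Tdrd1 (-0.35) turned with E16 in place of E17, where Stag2, Cdh5, Ctnnb1, H19, Kdr, Nusap1 and Prc1 gained a call. Pole, near 0, was at 0.062 without the filter, at 0.017 with 12 libraries and at -0.16 to 0.19 on leaving out each library. Relative to reads of all genes, the spermatocyte and spermatid sum at E17 was 206.8 RPM, and promoters of genes with a log2 rise of at least 1 had a median of 22 CG.

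Replicate numbers did not pair the libraries: deviations from the group means had r of 0.06 for E16 and E17, 0.09 for E16 and P7 and 0.02 for E17 and P7 over 7762 genes. With the replicate block 10024 genes passed, 4464 higher and 5560 lower. With 2 libraries a group, 60% of simulated 2-fold changes were recovered, and 1 count was worth more RPM at E17 than at P7.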

Other observations

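Genes of protein synthesis were mostly higher at P7. Of 42 translation factors tested 26 rose, 8 fell and 8 did not pass, and of 31 genes of ribosome biogenesis 19 rose, 7 fell and 5 did not pass. Eif5b, which joins the ribosomal subunits, had 546 and 503 RPM at P7, against 110 and 108 RPM at E17 (log2 fold change 2.43 ± 0.14). Dkc1, which makes pseudouridine in ribosomal RNA, rose by log2 3.60 ± 0.26, while Rrp12 and Mybbp1a fell by 1.43 ± 0.14 and 1.17 ± 0.12. Of 29 genes of cholesterol and lipid synthesis 15 rose, 3 fell and 11 did not pass, and upper quartile scaling gave 9 higher and 6 lower. Fasn, the fatty acid synthase, had 226 and 263 RPM at P7, against 568 and 597 RPM at E17 (log2 fold change -1.09 ± 0.12).

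Of 25 homing and niche receptor genes 11 fell (44%, near the 37.8% of all genes tested), 6 rose and 8 did not pass. Ddr1, a collagen receptor, had 27.7 and 23.9 RPM at P7, against 255 and 252 RPM at E17 (log2 fold change -3.14 ± 0.16). Igf1r, the receptor of insulin-like growth factors, had 127 and 153 RPM at P7, against 22.6 and 30.4 RPM at E17 (log2 fold change 2.55 ± 0.21). Of 24 interferon-inducible genes 12 fell (50%), 5 rose and 7 did not pass. Ddx58, the RNA sensor RIG-I, was 103-fold lower, at 2 counts in all at P7. Irf1 rose by log2 2.31 ± 0.21. Of 34 germline antigens and X-linked genes 18 rose, 3 fell and 13 did not pass, and upper quartile scaling gave 12 higher and 9 lower, RLE scaling 17 higher and 5 lower and E16 in place of E17 22 higher and 6 lower. The homeobox genes Rhox6 and Rhox9 fell by log2 4.54 ± 0.50 and 3.61 ± 0.44. Levels of other cell types' markers, given above, were lower at P7 as well, and their part in these falls was not tested.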
